A study of Mus musculus with 6 samples.

Results

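The genes described here encode the splicing factors of 4 families: the heterogeneous nuclear ribonucleoproteins (hnRNPs), the serine/arginine-rich (SR) proteins, the SF3a and SF3b subunits of the U2 small nuclear ribonucleoprotein (snRNP), and the snRNP core and snRNP-specific proteins. Members were taken by symbol, as every row of the count table whose name began with Hnrn, with Srsf or Sfrs and a number, with Sf3a or Sf3b and a number, or with Snrp. The rule found 50 of the 23337 genes in the table: 18 hnRNP, 12 SR, 8 SF3 and 12 snRNP genes. Of these, 49 had at least 10 counts in 3 libraries and entered the comparison. The exception was Srsf12, with 2 counts in 1 stretch library and 2 in each of 2 control libraries. Splicing genes with other symbol stems, such as Snrnp70 and Hnrpdl, were outside the rule.

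The data are RNA-sequencing libraries of primary sinusoidal endothelial cells of mouse liver, which form the porous wall of the liver's capillaries. These cells were taken from livers with immunomagnetic beads, grown on collagen IV in Flexcell plates, whose flexible bottoms can be pulled by vacuum, and starved of serum. The 3 stretch libraries came from cells under cyclic stretch of 4% at 1 Hz, and the 3 control libraries from unstretched cells that otherwise had the same collagen IV coating and serum starvation. The labels give no mouse strain, age or duration of stretch, and do not say whether replicates came from separate isolations, so p-values below measure only the spread between these libraries.

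Pre-mRNA splicing is carried out by the spliceosome, which assembles on each intron from snRNPs, particles of a small nuclear RNA and its proteins. The U1 snRNP recognises the start of the intron, and the U2 snRNP, with its SF3a and SF3b subunits, binds the branch point. SR proteins bind exons and mostly promote the use of nearby splice sites, whereas hnRNPs coat nascent transcripts and often repress splice sites. Many SR and hnRNP genes limit their own expression by splicing in exons that send the transcript to nonsense-mediated decay.

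Most members had modestly higher RNA in stretched cells. Of the 49 members compared, 32 rose and 3 fell, with 14 not passing edgeR's quasi-likelihood test at an adjusted p under 0.05. The share of members that rose was 65.3%, against a background of 21.4% of the 14222 genes tested, and the share that fell was 6.12%, against 22.6%. The median log2 fold change, stretch over control, was 0.22 over the members and −0.01 over all genes tested. In 33 members all 3 stretch libraries lay above all 3 control libraries, and in 4 they lay below, against 26.7% and 29.2% of all genes tested. The changes were small: member log2 fold changes ran between −0.19 and 0.53. Of the 49 members, 0 were called with a change of 1.5-fold or more, against 1925 of the 14222 genes tested. Summed over the 49 members, the level was 10352, 10018 and 10354 CPM (counts scaled to library size with trimmed-mean, or TMM, factors) in stretch libraries 1, 2 and 4, against 8571, 8478 and 8568 CPM in control libraries 2, 3 and 4. The 3 stretch sums lay above the 3 control sums, by 1.2-fold in the means. The plot of member fold changes shows most points to the right of 0 in each family.

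**Figure D1:**
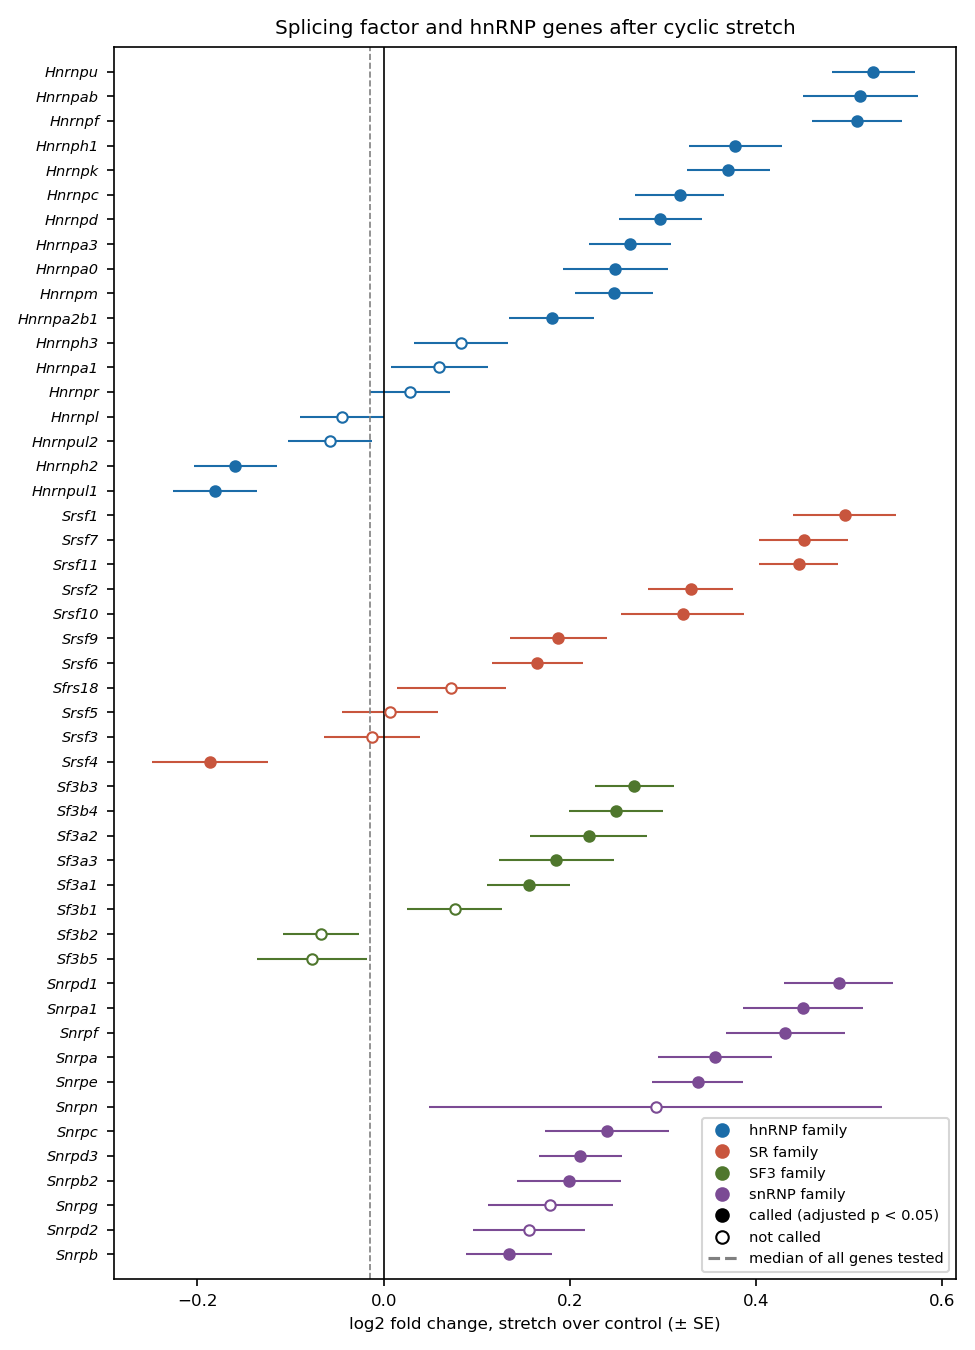
Log2 fold change, stretch over control, of each of the 49 members, grouped by family; points are edgeR estimates from 3 stretch and 3 control libraries, bars are ± 1 standard error, colours mark the family and filled points passed at an adjusted p under 0.05. The estimates lie between −0.19 (Srsf4) and 0.53 (Hnrnpu), with 32 members called higher and 3 lower in stretched cells.

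Members are abundant genes, and abundant genes rose more often than the rest. Among the 6080 genes tested whose mean level was at or above 28.6 CPM, the level of Hnrnph3, the lowest member but for Snrpn, 34.6% rose and 23.6% fell, and the median log2 fold change was 0.05. This level was chosen after the members' values were seen. Against a fold-change threshold of 1.2 (edgeR's glmTreat), 11 members rose and 0 fell, with 8.51% of all genes higher and 9.33% lower. Scaled by library size alone, which lowered the median of all genes by 0.092 on the log2 scale, 22 members rose and 5 fell, with 14.7% of all genes higher and 30.2% lower. The 3 members that fell depended on single libraries: 2 fell without stretch library 4, and 1 fell without control library 2, control library 4 or stretch library 2.

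In bulk libraries, a change in RNA per cell and a change in the make-up of the culture cannot be told apart. Total counts were 58531652, 68489956 and 58503669 in the stretch libraries and 57923937, 48948948 and 51221205 in the control libraries. Markers of sinusoidal endothelium were high in every library, at 5595 to 6547 CPM summed over 8 genes in stretched cells and 7570 to 8644 CPM in control cells, and 7 of the 8 fell. Of 6 general endothelial markers 4 fell (Kdr, Tie1, Tek and Erg) and 0 rose, with sums of 6047 to 6701 CPM in stretched and 6118 to 6882 CPM in control cells. Of 15 hepatocyte markers, 11 rose and 0 fell, and their sum was 863 CPM in stretch library 1 and 182 to 194 CPM in the other stretch libraries, against 89.9 to 127 CPM in control libraries. Of 11 macrophage markers, 10 were tested and 9 rose, with sums of 113 to 156 CPM in stretched and 79.3 to 94.2 CPM in control cells. Of 4 cholangiocyte markers, 2 rose and 0 fell, with sums of 135 to 160 CPM in stretched and 77.6 to 104 CPM in control cells. Of the stellate cell and fibroblast markers, 8 of 9 were tested and 0 passed, with sums of 66.4 to 110 CPM against 83.7 to 94.6 CPM, and of 6 lymphocyte markers 3 were at 0 in all libraries. Of 15 cell cycle genes, 2 rose and 4 fell, and their sum was 380.4 to 404 CPM in stretched and 354 to 377 CPM in control cells. The part of these cell types in the members' values was not tested. Without stretch library 1, which had the highest hepatocyte sum, 30 members rose and 0 fell, with 18.1% of all genes higher and 19.0% lower.

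The promoters of these genes are shown for 1 member of each family, because members that move together are often compared for shared promoter elements. RefSeq promoters, from 250 bases before to 50 bases after the annotated start (GRCm38.p6), were matched for 44 of the 50 members. The letters CCGGAAG, a core binding sequence of ETS family transcription factors, searched on both strands, occurred in 15 of the 43 compared members with a promoter (34.9%). They occurred in 17.3% of the 9952 promoters of genes tested and in 8.86% of all 32851 promoters. The motif was not set in advance, and of the motifs searched it stood furthest above the genes tested. Among members that rose, 11 of 29 held the letters (37.9%), against 4 of 14 (28.6%) among the other members. The promoters printed are those of the member with the smallest p among the risen members of each family that hold the letters, with each match in capitals, 5′ to 3′ along the gene's strand; a match on the other strand reads CTTCCGG.
Hnrnpf, chr6:117900090-117900389, plus strand: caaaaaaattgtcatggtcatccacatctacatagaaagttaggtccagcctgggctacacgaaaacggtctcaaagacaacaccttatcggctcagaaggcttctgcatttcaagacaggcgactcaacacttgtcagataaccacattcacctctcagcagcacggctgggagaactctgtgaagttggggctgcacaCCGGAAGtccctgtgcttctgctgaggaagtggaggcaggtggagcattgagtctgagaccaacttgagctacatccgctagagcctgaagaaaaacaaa
Srsf11, chr3:158036557-158036856, minus strand: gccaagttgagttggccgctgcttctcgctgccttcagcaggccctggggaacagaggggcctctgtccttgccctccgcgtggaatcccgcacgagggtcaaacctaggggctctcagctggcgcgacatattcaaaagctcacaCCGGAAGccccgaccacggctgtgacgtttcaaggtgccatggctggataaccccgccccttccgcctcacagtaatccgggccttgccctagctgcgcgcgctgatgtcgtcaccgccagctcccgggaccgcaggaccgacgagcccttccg
Sf3b3, chr8:110846754-110847053, minus strand: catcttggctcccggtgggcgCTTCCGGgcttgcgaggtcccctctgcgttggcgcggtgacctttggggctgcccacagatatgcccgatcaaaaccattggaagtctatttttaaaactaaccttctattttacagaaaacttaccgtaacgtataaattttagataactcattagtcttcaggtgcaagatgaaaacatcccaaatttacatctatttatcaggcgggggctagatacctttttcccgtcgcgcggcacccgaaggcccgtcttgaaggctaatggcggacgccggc
Snrpe, chr1:133610231-133610530, minus strand: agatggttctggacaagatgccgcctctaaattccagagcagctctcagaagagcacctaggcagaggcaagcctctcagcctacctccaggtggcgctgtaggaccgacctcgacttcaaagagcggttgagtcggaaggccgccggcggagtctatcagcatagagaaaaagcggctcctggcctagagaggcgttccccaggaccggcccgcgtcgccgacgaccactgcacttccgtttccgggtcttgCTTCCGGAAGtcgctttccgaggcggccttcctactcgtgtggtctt
The match begins 50 bases before the start in Hnrnpf, 104 in Srsf11 and 229 in Sf3b3, and in Snrpe the matches lie after it. The other motifs were searched in the same way, against the same promoters of genes tested. The E-box CACGTG occurred in 11.6% of members against 10.1%, the CCAAT box (CCAAT) in 48.8% against 38.3%, the GC box GGGCGG in 67.4% against 63.9%, and the TATA box (TATAAA) in 14.0% against 7.53%. The AP-1 letters TGANTCA occurred in 4.65% against 5.43%, and the cAMP response element TGACGTCA in 4.65% against 3.19%. The median GC content of the 43 member promoters was 60.0%, against 60.7% for the genes tested.

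The hnRNP family had the highest ratio of summed levels among the 4 families, a difference between families that was not tested. Of its 18 members, 11 rose, 2 fell and 5 did not pass, with a median log2 fold change of 0.25. The family summed to 6933 ± 174 CPM in stretched cells and 5645 ± 24.0 CPM in control cells (SD, n = 3 each), a 1.23-fold difference. It supplied 0.671% of all counts in stretched cells and 0.583% in control cells. The 11 that rose came from most branches of the family: the A/B group (Hnrnpa0, Hnrnpa2b1, Hnrnpa3), the AU-rich element binders (Hnrnpab, Hnrnpd), the G-tract binders (Hnrnpf, Hnrnph1), Hnrnpc, Hnrnpk, Hnrnpm and Hnrnpu.

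Hnrnpu, a large chromatin-associated RNA-binding protein (also called scaffold attachment factor A), had the smallest p of all members. It measured 896, 852 and 891 CPM in stretched cells, against 612, 613 and 607 CPM in control cells. The lowest stretched library stood well above the highest control library, and the log2 fold change was 0.53 ± 0.044 (edgeR adjusted p = 8.63e-05). Hnrnpf, which binds runs of G near splice sites and is the first of the promoters printed above, measured 763, 709 and 753 CPM in stretched cells, against 518, 533 and 512 CPM in control cells. Its groups did not overlap, and it rose by 0.51 ± 0.048 on the log2 scale (edgeR adjusted p = 0.000129). Hnrnpab, a relative of the AU-rich element binder Hnrnpd, measured 642, 558 and 572 CPM in stretched cells, against 399.9, 418 and 424 CPM in control cells. Stretch library 1 was the highest of the 6, all 3 stretched libraries exceeded the controls, and the log2 fold change was 0.51 ± 0.062 (edgeR adjusted p = 0.000358). Hnrnpk, a poly(C)-binding protein with KH domains, measured 852, 808 and 824 CPM in stretched cells, against 648, 642 and 631 CPM in control cells. It rose by 0.37 ± 0.045 on the log2 scale (edgeR adjusted p = 0.000359), with no overlap between groups.

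The other 7 hnRNP genes that rose had log2 fold changes between 0.18 and 0.38. Hnrnph1, like Hnrnpf a binder of G runs, averaged 335 ± 15.4 CPM in stretched cells and 258 ± 7.59 CPM in control cells (SD, n = 3 each), and rose by 0.38 ± 0.050 on the log2 scale (edgeR adjusted p = 0.000570). Hnrnpc, which binds runs of U and keeps cryptic exons out of mRNA, averaged 236 ± 11.2 CPM in stretched cells and 189 ± 1.35 CPM in control cells (SD, n = 3 each). Hnrnpd, known as an AU-rich element binder that affects mRNA stability, averaged 173 ± 2.67 CPM in stretched cells and 141 ± 5.09 CPM in control cells (SD, n = 3 each). Each of these stood clear of its control range. Within the A/B group, whose proteins silence exons and carry mRNA to the cytoplasm, Hnrnpa3 and Hnrnpa0 rose, with log2 fold changes of 0.26 and 0.25. Hnrnpa2b1 rose by 0.18 (edgeR adjusted p = 0.0127), but its adjusted p was 0.137 in the same edgeR test scaled by library size alone and 0.0514 without control library 3. Hnrnpa1, the best-known member of that group and one with many processed pseudogenes, did not pass. It measured 375, 349.5 and 382 CPM in stretched cells, against 365, 339.9 and 357 CPM in control cells, and the groups overlapped. Its log2 fold change of 0.060 ± 0.052 turned negative, at −0.034, when scaled by library size alone. Hnrnpm, which regulates alternative exons, rose by 0.25.

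The 2 hnRNP members that fell were relatives of members that rose. Hnrnpul1, a protein related to Hnrnpu, measured 151, 157 and 156 CPM in stretched cells, against 169, 182 and 176 CPM in control cells. All 3 stretched libraries lay below the controls, and it fell, at −0.18 ± 0.045 on the log2 scale (edgeR adjusted p = 0.0120). Without stretch library 1 the edgeR adjusted p was 0.0544. Hnrnph2, the X-linked relative of Hnrnph1, measured 76.1, 77.3 and 76.8 CPM in stretched cells, against 88.8, 82.6 and 85.8 CPM in control cells. The groups did not overlap, and the log2 fold change was −0.16 ± 0.044 (edgeR adjusted p = 0.0190). Its edgeR adjusted p lay between 0.0504 and 0.0730 when control library 2 or 4 or any 1 stretch library was left out, and was 0.0210 without control library 3. The 5 hnRNP genes that did not pass were Hnrnpa1, Hnrnph3, Hnrnpl, Hnrnpr and Hnrnpul2, with log2 fold changes between −0.057 and 0.083.

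**Figure D2:**
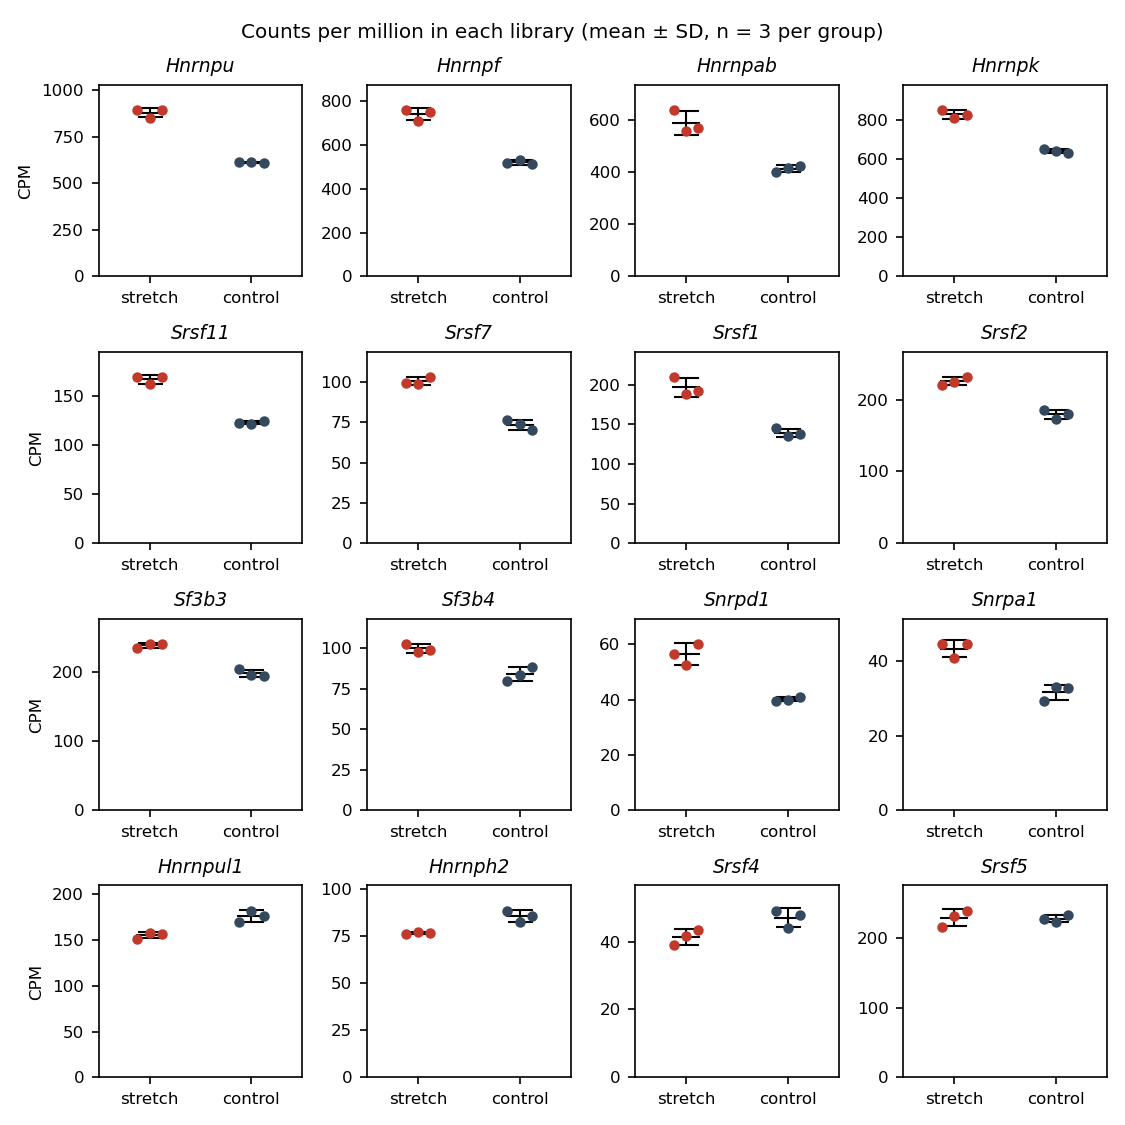
Level in each library, in TMM-scaled CPM on axes from 0, of 12 members that rose, 3 that fell and Srsf5; each point is 1 library, with the 3 stretch libraries left of the 3 control libraries, and dashes with error bars give the mean ± SD. Hnrnpu lies between 852 and 896 CPM in stretched cells and between 607 and 613 CPM in control cells, while Hnrnpul1 lies lower in stretched cells.

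Of the 11 SR genes compared, 7 rose, 1 fell and 3 did not pass, with a median log2 fold change of 0.19. Their sum was 1553 ± 27.9 CPM in stretched cells and 1334 ± 35.3 CPM in control cells (SD, n = 3 each), a 1.16-fold difference. The plot of named members by library shows Srsf11, Srsf7, Srsf1 and Srsf2 with separate groups. Srsf11, an SR-related protein that contacts U2-associated factors, measured 169, 161 and 169 CPM in stretched cells, against 122, 121 and 124 CPM in control cells. Its groups were well apart, and the log2 fold change was 0.45 ± 0.042 (edgeR adjusted p = 0.000127). Srsf7, a zinc-knuckle SR protein that also serves in mRNA export, measured 99.6, 99.1 and 103 CPM in stretched cells, against 76.6, 74.0 and 70.4 CPM in control cells. It rose by 0.45 ± 0.048 on the log2 scale (edgeR adjusted p = 0.000197), without overlap. Srsf1, the founding SR protein, measured 210.3, 188 and 192 CPM in stretched cells, against 145, 136 and 138 CPM in control cells. Stretch library 1 was the highest, all 3 stretched libraries exceeded the controls, and the log2 fold change was 0.50 ± 0.056 (edgeR adjusted p = 0.000251).

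Srsf2, a nuclear speckle protein that binds exonic enhancers, averaged 226 ± 5.71 CPM in stretched cells and 179.7 ± 6.18 CPM in control cells (SD, n = 3 each). Its log2 fold change was 0.33 ± 0.046 (edgeR adjusted p = 0.000705). Srsf10, which represses splicing when dephosphorylated, rose by 0.32. Srsf6 and Srsf9, both exon-binding SR proteins, rose by 0.17 and 0.19, with edgeR adjusted p of 0.0247 and 0.0191. Both lost the call when scaled by library size alone, at an edgeR adjusted p of 0.301 for Srsf6 and 0.183 for Srsf9. Both also lost it without control library 2, at 0.0828 and 0.0736 in the same edgeR test. The call on Srsf6 was further lost without control library 3 or stretch library 4, and that on Srsf9 without stretch library 1.

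Srsf4 was the SR gene that fell. It measured 38.8, 41.5 and 43.5 CPM in stretched cells, against 49.1, 43.9 and 47.9 CPM in control cells. The groups came close without overlapping, and the log2 fold change was −0.19 ± 0.063 (edgeR adjusted p = 0.0397). The edgeR adjusted p was between 0.0963 and 0.144 when control library 2 or 4 or stretch library 1 or 2 was left out, and DESeq2 gave 0.0655. Srsf5 and Srsf3 were among the most abundant SR genes and did not pass. Srsf5 measured 215, 232 and 239 CPM in stretched cells, against 228, 223 and 233 CPM in control cells, and Srsf3 averaged 203 ± 9.17 CPM in stretched cells and 205 ± 8.15 CPM in control cells (SD, n = 3 each). Their groups overlapped, with log2 fold changes of 0.0069 ± 0.051 and −0.013 ± 0.052, and both changed sign with the scaling. Sfrs18, the older symbol of the SR-related gene Pnisr, did not pass either, at 0.073 ± 0.058.

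Of the 8 SF3 genes, 5 rose, 0 fell and 3 did not pass, with a median log2 fold change of 0.17. Their sum was 1077 ± 12.3 CPM in stretched cells and 992 ± 9.68 CPM in control cells (SD, n = 3 each), a 1.09-fold difference. The 3 SF3a subunits, which join the U2 snRNP to SF3b, all rose, by 0.16 (Sf3a1), 0.22 (Sf3a2) and 0.19 (Sf3a3). Their edgeR adjusted p of 0.0209, 0.0212 and 0.0383 exceeded 0.05 without control library 2 and when scaled by library size alone. Without control library 2, 2 SF3 genes rose, with 2348 of all 14518 genes tested higher. Scaled by library size alone, again 2 SF3 genes rose and Sf3b2 fell, with 14.7% of all genes higher and 30.2% lower. Without stretch library 4, 3 SF3 genes rose, with 2572 of all 14544 genes tested higher. The call on Sf3a2 was further lost without stretch library 1, and that on Sf3a3 without control library 4. The SF3b genes were divided. Sf3b3, a scaffold of SF3b, measured 235, 240.0 and 241 CPM in stretched cells, against 204, 196 and 194 CPM in control cells. Its groups did not overlap, and the log2 fold change was 0.27 ± 0.042 (edgeR adjusted p = 0.00132). Sf3b4, an RNA-binding SF3b subunit, averaged 99.7 ± 2.64 CPM in stretched cells and 83.9 ± 4.16 CPM in control cells (SD, n = 3 each) and rose by 0.25 ± 0.050 on the log2 scale (edgeR adjusted p = 0.00437).

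Sf3b1, the subunit that holds the branch point, and Sf3b2, which binds Sf3b4, did not pass. Sf3b1 measured 300.0, 308 and 308 CPM in stretched cells, against 308, 278 and 283 CPM in control cells. Control library 2 reached the stretched range, and the log2 fold change was 0.076 ± 0.051. Sf3b2 measured 198, 193 and 202 CPM in stretched cells, against 208, 208 and 204 CPM in control cells. Here all 3 stretched libraries were the lower ones, and the log2 fold change was −0.067 ± 0.041, with an edgeR adjusted p of 0.218 that became 0.0112 when scaled by library size alone. Sf3b5, a small SF3b subunit, had a log2 fold change of −0.077 ± 0.059 and overlapping groups.

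Of the 12 snRNP genes, 9 rose, 0 fell and 3 did not pass, with a median log2 fold change of 0.27, and all 12 estimates were positive. Their sum was 679 ± 18.9 CPM in stretched cells and 568 ± 11.1 CPM in control cells (SD, n = 3 each), a 1.19-fold difference. Most encode Sm proteins, which form a ring around the snRNAs of U1, U2, U4 and U5. Snrpd1, an Sm protein, measured 56.4, 52.5 and 60.3 CPM in stretched cells, against 39.6, 39.9 and 41.1 CPM in control cells. The groups stood apart, and the log2 fold change was 0.49 ± 0.059 (edgeR adjusted p = 0.000348). Snrpe and Snrpf, also Sm proteins, averaged 49.8 ± 1.36 CPM in stretched cells and 39.4 ± 1.43 CPM in control cells (SD, n = 3 each) for Snrpe, and 47.2 ± 3.51 CPM in stretched cells and 35.0 ± 1.29 CPM in control cells (SD, n = 3 each) for Snrpf. They rose by 0.34 ± 0.049 and 0.43 ± 0.064 on the log2 scale, with edgeR adjusted p of 0.000860 and 0.000976, and neither had overlapping groups. Of the remaining Sm genes, Snrpd3 rose by 0.21 and Snrpb by 0.13, while Snrpg and Snrpd2 did not pass, at 0.18 ± 0.067 and 0.16 ± 0.060, with edgeR adjusted p of 0.0604 and 0.0647. Snrpg passed without stretch library 1, and Snrpd2 without control library 3 or stretch library 2, at edgeR adjusted p of 0.0135, 0.0426 and 0.0413. Snrpn, a relative of Snrpb expressed mainly in brain, was the lowest member compared, at 1.65, 1.33 and 1.08 CPM in stretched cells, against 1.22, 1.01 and 1.08 CPM in control cells.

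The U1 and U2 proteins of the snRNP family rose too. Snrpa1, which binds the U2 RNA, measured 44.6, 40.6 and 44.5 CPM in stretched cells, against 29.3, 32.8 and 32.7 CPM in control cells. No control library reached the stretched range, and the log2 fold change was 0.45 ± 0.065 (edgeR adjusted p = 0.000826). Snrpb2, its partner on the U2 RNA, rose by 0.20. Of the U1 proteins, Snrpa rose by 0.36 and Snrpc by 0.24. Several of the smaller calls depended on the scaling or on 1 library. Scaled by library size alone, 5 snRNP genes rose, with 14.7% of all genes tested higher. The calls on Snrpb, Snrpb2, Snrpc and Snrpd3 were then lost, at edgeR adjusted p of 0.517, 0.135, 0.108 and 0.0644. The call on Snrpb, at an edgeR adjusted p of 0.0435, was also lost without control library 2, 3 or 4 or stretch library 2 or 4. That on Snrpc was lost without control library 2 or 4 or stretch library 4, and that on Snrpb2 without control library 3 or 4 or stretch library 1.

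Levels between genes were compared in the deposited RPKM, which divide reads by library total and by the gene length of the table. The median over the 49 members was 49.9 RPKM, against 6.66 RPKM over all genes tested. Hnrnpk was the most abundant member at 376 ± 6.06 RPKM in stretched and 309 ± 1.96 RPKM in control cells (SD, n = 3 each), followed among hnRNPs by Hnrnpf at 222 ± 4.48 RPKM in stretched and 166 ± 4.30 RPKM in control cells (SD, n = 3 each). Srsf5 led the SR genes at 124 ± 7.54 RPKM in stretched and 131 ± 4.09 RPKM in control cells (SD, n = 3 each), Snrpb the snRNP genes at 144 ± 6.94 RPKM in stretched and 139.5 ± 1.41 RPKM in control cells (SD, n = 3 each), and Sf3b2 the SF3 genes at 54.8 ± 0.590 RPKM in stretched and 61.0 ± 0.687 RPKM in control cells (SD, n = 3 each). Group differences in these RPKM, which carry no TMM factor, were smaller than in CPM for Hnrnpk, Hnrnpf and Snrpb, and Srsf5 had the lower mean RPKM in stretched cells. Across the 49 members, Spearman's rho between mean RPKM and log2 fold change was 0.155, given as a description of genes that are not independent. The plot of level against change shows risen members from 12.5 to 342 mean RPKM and, among the most abundant genes of the SR and SF3 families, Srsf5 and Sf3b2 near 0. The median coefficient of variation between libraries, over members, was 3.86% in stretched and 3.44% in control cells. It ranged from 0.768% to 21.0% and from 0.52% to 9.68%, with Snrpn the highest in both groups.

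**Figure D3:**
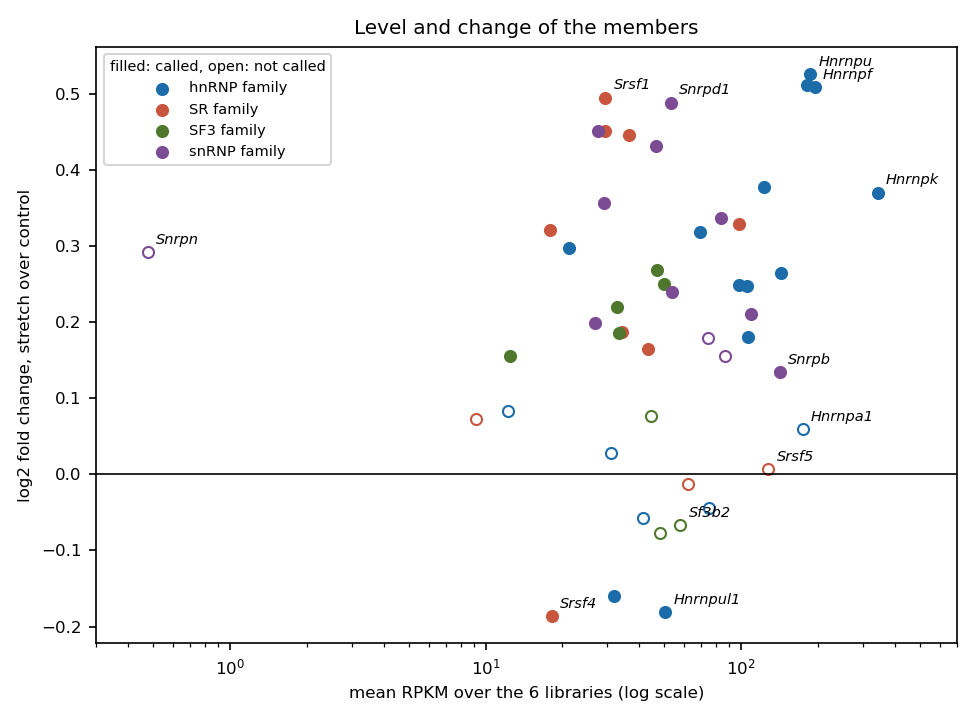
Log2 fold change, stretch over control, against mean deposited RPKM over the 6 libraries on a log axis; each point is 1 of the 49 members, coloured by family and filled where the adjusted p was under 0.05. Risen members lie between 12.5 (Sf3a1) and 342 RPKM (Hnrnpk), and Spearman's rho is 0.155.

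Related members changed unequally, which showed in ratios of CPM within each library. The 9 pairs plotted were chosen after the values were seen, so the ratios are given without a test. Some are given only in the plot. Hnrnpu over Hnrnpul1 was 5.93, 5.41 and 5.70 in stretched cells, against 3.62, 3.37 and 3.45 in control cells. Hnrnph1 over Hnrnph2 was 4.36, 4.16 and 4.58 in stretched cells, against 2.87, 3.06 and 3.10 in control cells. In these pairs the numerator rose and the denominator fell. Srsf7 over Srsf3, both SR proteins linked to mRNA export, averaged 0.496 ± 0.0218 in stretched and 0.359 ± 0.0182 in control cells (SD, n = 3 each). Sf3b3 over Sf3b2 averaged 1.21 ± 0.0296 in stretched and 0.957 ± 0.0207 in control cells (SD, n = 3 each). Snrpd1 over Snrpd2, neighbours in the Sm ring, averaged 1.17 ± 0.0199 in stretched and 0.929 ± 0.0539 in control cells (SD, n = 3 each). The widest gap was that of the SR protein kinases, with Srpk1 over Srpk2 at 1.34, 1.25 and 1.25 in stretched cells, against 0.639, 0.704 and 0.743 in control cells. The plot of ratios shows the stretched libraries above the controls in each of the 9 pairs. In every pair the gene with the higher log2 fold change is the numerator, so this direction was fixed by the choice.

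**Figure D4:**
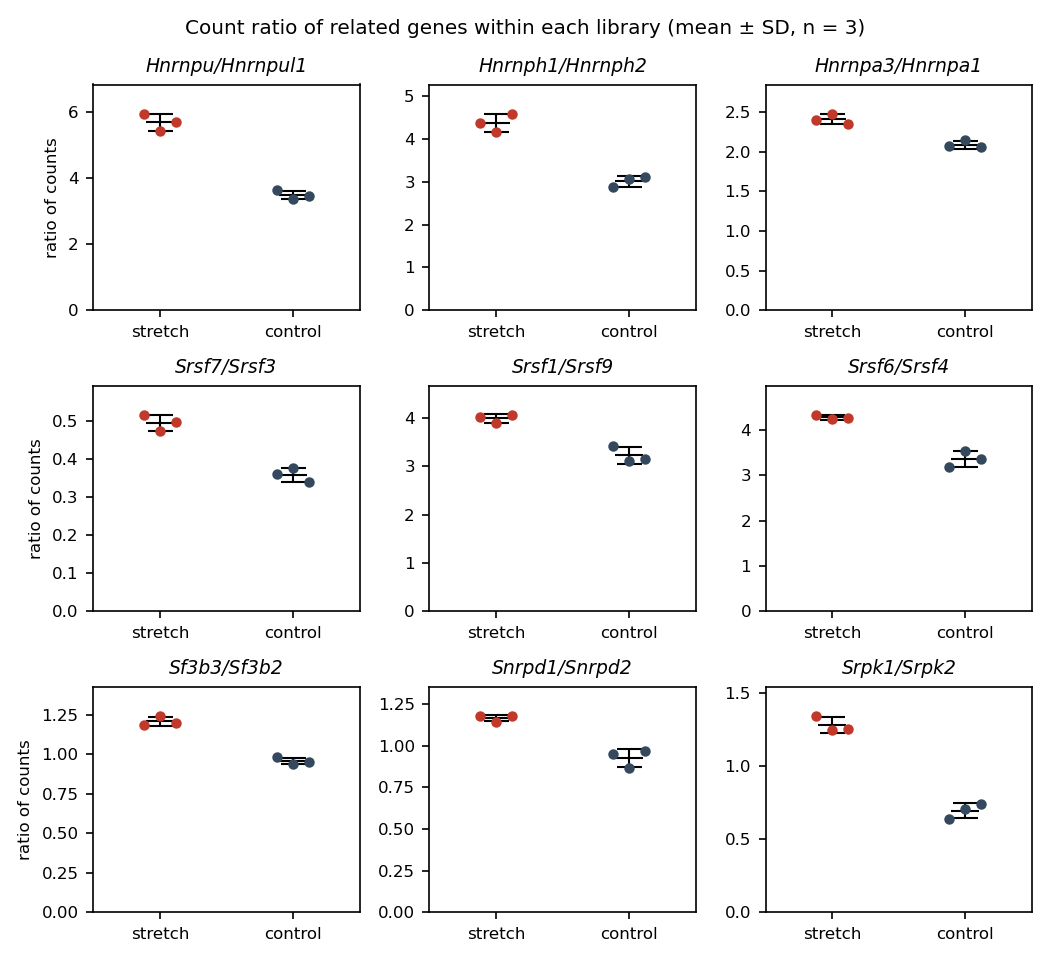
Ratio of CPM between related genes within each library, for 9 pairs chosen after their values were seen; points are single libraries, with the 3 stretch libraries left of the 3 control libraries, and dashes with error bars give the mean ± SD. Hnrnpu over Hnrnpul1 averages 5.68 in stretched and 3.48 in control libraries, and Srpk1 over Srpk2 averages 1.28 and 0.695.

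The genes that work with these families were counted in 11 lists of splicing partners. Over all lists, 83 of the 167 genes tested rose and 14 fell, with a median log2 fold change of 0.16. These were 49.7% and 8.38% of the list genes, against 21.4% higher and 22.6% lower over all genes tested. Like the members, list genes were abundant, with a median of 21.7 RPKM against 6.66 RPKM over all genes tested. Of the 6080 genes at or above 28.6 CPM, 34.6% rose and 23.6% fell. Scaled by library size alone, 49 list genes rose and 28 fell, with 14.7% of all genes tested higher and 30.2% lower. Of 13 U2AF and U2-associated genes, 7 rose and 0 fell. Dhx15, a helicase that takes spliceosomes apart, averaged 285 ± 14.6 CPM in stretched cells and 210.0 ± 3.02 CPM in control cells (SD, n = 3 each), and Rbm17, which binds U2-associated proteins, averaged 146 ± 3.04 CPM in stretched cells and 112 ± 3.19 CPM in control cells (SD, n = 3 each). U2af1 and U2af2, the subunits that bind the end of the intron, rose by 0.43 and 0.36. Of 33 genes of the U5 and tri-snRNP particles and other PRPF factors, 15 rose and 1, Crnkl1, fell by 0.24 on the log2 scale. Nhp2l1, which binds the U4 RNA, rose by 0.55 ± 0.046 (edgeR adjusted p = 8.53e-05), and Usp39, needed for the tri-snRNP to join, by 0.38 ± 0.042 (edgeR adjusted p = 0.000233). Of 15 genes of the SMN complex and snRNP assembly, which load Sm proteins onto snRNAs, 9 rose and 0 fell. Wdr77, the partner of the methyltransferase Prmt5, measured 101, 103 and 106 CPM in stretched cells, against 64.5, 72.2 and 69.5 CPM in control cells. Gemin5, which recognises the snRNA, measured 75.8, 68.7 and 71.9 CPM in stretched cells, against 49.6, 51.4 and 49.0 CPM in control cells. Both stood clear of their control ranges. Of 9 LSm genes 1 rose, or 11.1%, below the 21.4% of all genes tested, and 0 fell. The 1 that rose was Lsm11, a protein of the U7 snRNP, at 0.30 ± 0.095 (edgeR adjusted p = 0.0311). The call on Lsm11 was lost without control library 2 or 4 or stretch library 2 or 4.

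Among the proteins that modify, carry or act beside SR and hnRNP proteins, most called genes were higher. Of 8 SR protein kinases, 4 rose and 1 fell. Srpk1, a kinase that phosphorylates SR proteins in the cytoplasm, measured 58.4, 54.5 and 57.6 CPM in stretched cells, against 42.2, 43.2 and 45.1 CPM in control cells. Srpk2, its relative, measured 43.5, 43.8 and 46.0 CPM in stretched cells, against 66.1, 61.3 and 60.8 CPM in control cells. They moved in opposite directions without overlap, with log2 fold changes of 0.39 ± 0.049 (edgeR adjusted p = 0.000485) for Srpk1 and −0.50 ± 0.051 (edgeR adjusted p = 0.000178) for Srpk2. Dyrk1a, another kinase of SR proteins, rose by 0.19. Of 14 SR-related genes, 7 rose and 0 fell, led by Zranb2 at 0.52 and Luc7l, a U1-associated protein, at 0.51. All 6 arginine methyltransferases tested, which modify hnRNPs and Sm proteins among others, rose, among them Carm1 by 0.39 and Prmt6 by 0.48. Of 8 genes of nuclear import and export, 6 rose and 0 fell, including Tnpo3, the importin of SR proteins, by 0.31, and the export adaptor Alyref by 0.41. Of 9 exon junction complex genes, 6 rose and 0 fell, among them Rnps1 at 0.40 and Rbm8a at 0.25. Of 8 nonsense-mediated decay genes, 2 rose and 1 fell, or 25% and 12.5%, near or below the 21.4% and 22.6% of all genes tested. Upf1, the helicase of the pathway, rose by 0.14, and Smg6, its endonuclease, fell by 0.31 on the log2 scale. The call on Upf1 was lost without control library 3 or 4 or stretch library 4.

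The 44 other regulators of alternative splicing held the largest changes among the families and lists, in both directions. Of these, 20 were higher and 11 lower, or 45.5% and 25%, against 21.4% and 22.6% of all genes tested. The lower share was thus near the background. The highest and the lowest estimates were those of Esrp2 and Mbnl3, named after their values were seen. Esrp2, an epithelial splicing regulator, measured 5.25, 4.27 and 3.04 CPM in stretched cells, against 2.18, 2.17 and 2.13 CPM in control cells, and rose by 0.95 ± 0.208 on the log2 scale (edgeR adjusted p = 0.00648). Its level was highest in stretch library 1, which also had the highest hepatocyte marker sum, and the log2 fold change was 0.76 without that library. Cholangiocyte marker sums were 155, 160 and 135 CPM in stretch libraries 1, 2 and 4, against 77.6 to 104 CPM in control libraries. The part of epithelial cells in the Esrp2 values was not tested. Mbnl3, a muscleblind-family splicing regulator, measured 6.78, 9.88 and 7.02 CPM in stretched cells, against 23.6, 16.2 and 14.6 CPM in control cells. It fell, at −1.20 ± 0.205 on the log2 scale (edgeR adjusted p = 0.00198), with no overlap between groups. Among the genes with the smallest p, Qk, a KH-domain RNA-binding protein active in vascular cells, measured 739, 658 and 685 CPM in stretched cells, against 386, 407 and 384 CPM in control cells. Its 3 stretched libraries lay far above the controls, and the log2 fold change was 0.82 ± 0.056 (edgeR adjusted p = 5.34e-05). Fubp1, which binds single-stranded DNA and U-rich RNA, rose by 0.73 ± 0.070 on the log2 scale (edgeR adjusted p = 0.000134). On the other side, Cirbp, a cold-inducible RNA-binding protein, measured 13.3, 18.1 and 15.8 CPM in stretched cells, against 34.8, 29.8 and 30.2 CPM in control cells. No stretched library reached the control range, and the log2 fold change was −1.01 ± 0.113 (edgeR adjusted p = 0.000256). Nova2, a splicing regulator known in neurons and endothelium, averaged 21.6 ± 1.28 CPM in stretched cells and 37.0 ± 3.91 CPM in control cells (SD, n = 3 each) and fell, at −0.78 ± 0.084 on the log2 scale (edgeR adjusted p = 0.000211). The plot of called shares sets the 4 families and the partner lists beside the background of 21.4% higher and 22.6% lower.

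**Figure D5:**
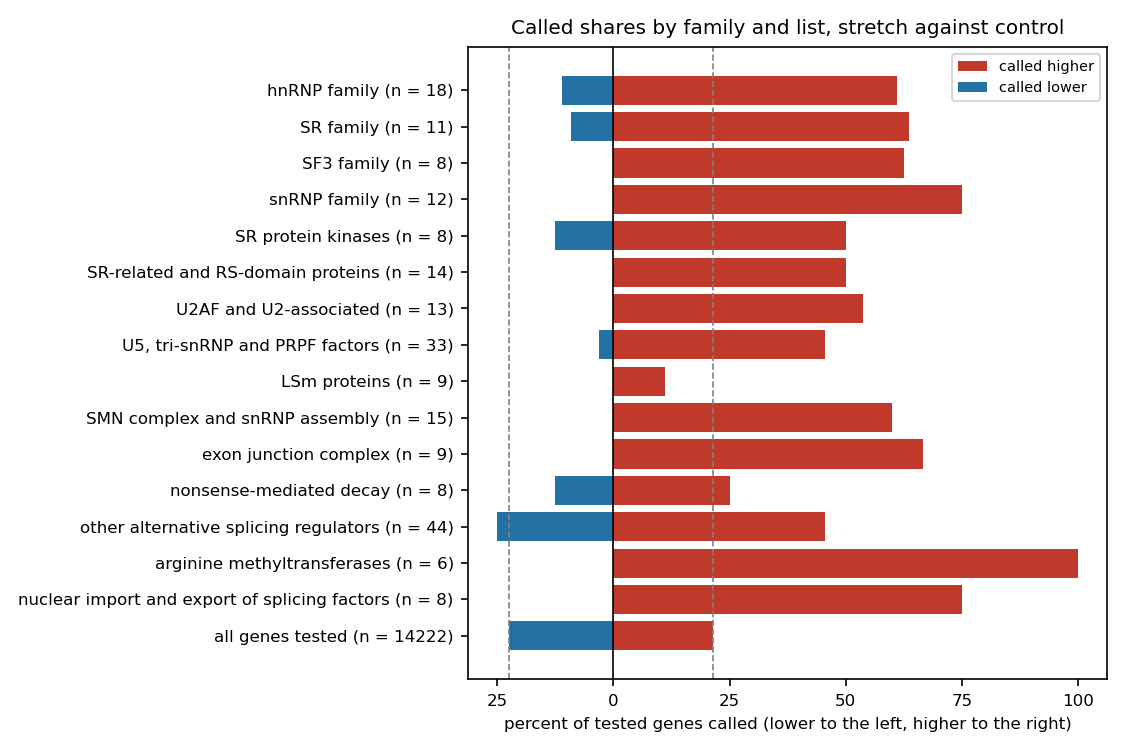
Percent of genes tested that were called higher or lower in stretched cells (edgeR adjusted p under 0.05) in the 4 member families and 11 partner lists, with dashed lines at 21.4% higher and 22.6% lower over all 14222 genes tested. The families lie between 61.1% and 75.0% higher, and the LSm proteins at 11.1%.

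Gene counts add up all transcripts of a gene, so productive and decay-targeted RNA of these members cannot be told apart. In the GENCODE vM21 annotation (GRCm38), 10 of the 11 SR genes compared had a transcript annotated as a target of nonsense-mediated decay (90.9%), as did 8 of 18 hnRNP genes (44.4%), 4 of 12 snRNP genes (33.3%) and 1 of 8 SF3 genes (12.5%). Over the 12192 protein-coding genes tested the share was 27.9%. The number of annotated transcripts also differed, with a median of 8.0 in SR, 9.5 in hnRNP, 4.5 in snRNP and 4.0 in SF3 genes, against 5.0. The part of transcript number in these shares was not tested. Exons shared with other genes touch some of the values above. No source used here states the strand setting of the counts, which bears on exons shared on opposite strands. At least 10% of exonic bases were shared with another gene in 9 of the 49 members. These included, on the opposite strand, Snrpf, with 85.4% shared, Srsf4 with 43.0%, Hnrnpab with 29.1%, Hnrnpf with 26.5%, Srsf2 with 25.3% and Sf3a2 with 16.1%. Hnrnpm shared 14.7% and Snrpn 27.3% on the same strand, which no strand setting separates. The values of these genes may include reads of their neighbours, and Hnrnpa1 and several Sm genes have near-identical processed pseudogenes that can take some of their reads. By position on GRCm38, Hnrnpu lies at chromosome 1, 178328300 to 178337784, Hnrnpul1 at chromosome 7, 25722039 to 25754720, Hnrnph2 at chromosome X, 134601286 to 134607054, Srsf1 at chromosome 11, 88047671 to 88053757 and Srsf4 at chromosome 4, 131873639 to 131901725, as the deposited table gives them.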

How the data were processed

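Raw gene counts and RPKM values of 6 libraries, 3 stretch and 3 control, were deposited by the authors. Per the submitters' processing notes, TopHat2 2.1.0, featureCounts and edgeR were used with GRCm38; no source used here states their roles, the annotation or the strand setting. The deposited counts were tested on the whole table with edgeR 4.0.16 in R 4.3.3 (TMM scaling, filterByExpr, quasi-likelihood F test, Benjamini-Hochberg adjustment over 14222 genes). The standard error is the log2 fold change divided by the square root of F. CPM are TMM-scaled counts, and the deposited RPKM served only to compare levels between genes. The authors also deposited log2 fold changes, p-values and a likelihood ratio score, which was not used: in the authors' deposited table, 30 members were higher and 2 lower, and 46 of 49 members had the same call. Calls were made at an adjusted p under 0.05.

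The members and lists were chosen with earlier results of these data known. Named members are, in each family, up to 4 called genes with the smallest p in each direction and the 2 with the highest RPKM; named partners are up to 2 per list and direction with the smallest p, and others stand beside a count or were chosen after their values were seen. The values of 1 partner gene are not reported here. Depth was 48948948 to 68489956 counts per library, with a common biological coefficient of variation of 0.12. Replicate pairs differed by more than sampling noise (reduced chi-square 18.0 to 36.6), which cannot show whether they came from separate isolations. Each library was counted once. Alternatives were other scalings, filters, DESeq2 1.42.0, limma-voom (limma 3.58.1), a 1.2-fold threshold, robust dispersion, a replicate block and leaving out each library. The code was tested on simulated data.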

Additional observations from a re-analysis of the deposited data

How the results depend on the processing

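Of 17 alternatives, 11 of the 35 called members kept their call in all, and 22 in all but the 1.2-fold threshold. Over 79 genes and 17 alternatives, 1223 of 1343 log2 fold changes kept their direction and their side of the threshold, 96 lost significance, 11 gained it and 13, all of genes that were not called, changed sign. Scaled by library size alone, the log2 fold change was −0.0095 for Hnrnph3, −0.034 for Hnrnpa1, −0.063 for Hnrnpr, −0.020 for Sfrs18, −0.085 for Srsf5 and −0.016 for Sf3b1. It was −0.0049 for Srsf5 with upper-quartile factors and 0.0055 for Srsf3 with RLE factors or DESeq2. When 1 library was left out, Srsf5 lay between −0.026 and 0.056 and Srsf3 between −0.043 and 0.031. With the 1.2-fold threshold 2537 genes were called, 11 members rose and 0 fell, with 5 hnRNP, 3 SR, 0 SF3 and 3 snRNP genes higher and 0 hnRNP and 0 SR genes lower. Scaled by library size alone, 5 members fell, 2 SF3 genes rose and 1 fell, and 5 snRNP genes rose; 32.7% of all called genes were then higher, against 48.6%. With RLE factors or DESeq2, 0 SR genes fell. Without 1 library at a time, 25 to 32 members rose and 0 to 3 fell. In the same fits 0 to 2 hnRNP and 0 to 1 SR genes were lower and 2 to 5 SF3 genes higher. Over all genes, 2348 to 3022 rose and 2408 to 2873 fell in these fits, of 14460 to 14544 tested. The cause of these shifts was not tested.

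The groups share the numbers 2 and 4, which the labels tie to no common isolation, and deviations of same-numbered libraries correlated at 0.212 and 0.114, while libraries with unlike numbers correlated at −0.204 to 0.18. With a replicate block, 31 members rose and 2 fell, and 1 hnRNP gene fell. Over all 14222 genes tested, 2713 rose and 2855 fell in that fit. Of the 35 calls 31 were kept: Hnrnpul1, Hnrnpa2b1, Srsf9 and Snrpb2 lost theirs, at edgeR adjusted p of 0.0899, 0.120, 0.0800 and 0.0848, and Snrpg and Snrpd2 passed, at 0.0154 and 0.0282. Counts were lowest for Srsf12 and Snrpn, where depth limits the comparison most.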
